A study of Mus musculus with 17 samples.

Results

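The endocannabinoid signalling genes examined here are 7: the cannabinoid receptor genes Cnr1 and Cnr2, the diacylglycerol lipase genes Dagla and Daglb, the monoacylglycerol lipase gene Mgll, the fatty acid amide hydrolase gene Faah and Napepld, which encodes the phospholipase D that acts on N-acyl phosphatidylethanolamines. Their accessible regions were taken as every ATAC-seq peak that overlapped the gene body or the 20 kb on either side of it, in any of 17 libraries. Peaks that touched between libraries were merged, and a merged region was kept when at least 2 libraries of 1 group called it. This left 99 regions of 147420 in the whole series, from 162 of 281189 before that filter. Of the 99, 26 were called in all 17 libraries, and of all kept regions 25% were.

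The libraries came from NeuN-positive neuronal nuclei, sorted from the bilateral nucleus accumbens of C57BL/6 mice aged 52 to 54 days, with tissue of 3 animals pooled per library. The 6 groups were females in diestrus, females in proestrus and males, each as controls and 1 h after an intraperitoneal cocaine dose of 10 mg/kg. Each group had 3 libraries except male cocaine, which had 2. Diestrus is the stage of low estrogen and high progesterone, and proestrus the stage of high estrogen and low progesterone, both staged by vaginal smear. The controls were the 0-h animals and no saline injection is described for them, so that cocaine and the injection itself cannot be told apart. The library labelled diestrus cocaine replicate 2 has its stage given in its title but not in its stage field.

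Endocannabinoids are lipid messengers that neurons make on demand and that travel backwards across the synapse. Diacylglycerol lipases make arachidonoylglycerol and monoacylglycerol lipase breaks it down, while the Napepld enzyme is one source of anandamide and Faah degrades it. Cnr1 encodes CB1, the main cannabinoid receptor of neurons, which in the accumbens lowers transmitter release, and Cnr2 encodes CB2, which is best known from immune cells.

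The height of a region in a library was its highest summit, given as fold enrichment over that library's genome-wide background. Behind the 966 heights of the 99 regions stood between 16 and 491 reads piled up at the summit, with a median of 33. Libraries held 75458 to 157005 peaks, and the lowest fold enrichment called in any library lay between 1.97 and 2.21, so that a region at 3-fold stood close to the limit of detection. Promoters of all 4 neuronal and all 7 medium spiny neuron marker genes were called in all 17 libraries. None of the 4 oligodendrocyte promoters was called in any library, and of the astrocyte genes only Aqp4 was called, in 4 libraries. Among microglial genes Csf1r was called in 12 libraries, Aif1 in 6 and P2ry12 in 4, while Cx3cr1 and Tmem119 were called in none. For endothelium Pecam1 was called in 13 libraries and Cldn5 in none. Peaks in bulk nuclei do not tell fewer open cells from less opening per cell.

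1 library shared more regions with the other treatment than with its own group. The library labelled diestrus cocaine replicate 1 shared on average 71.9% of its called regions with the 3 diestrus controls and 62.5% with the other diestrus cocaine libraries (regions called in both, of those called in either). Its centred heights correlated at -0.119 on average with the other cocaine libraries of its stage and at 0.358 with the controls. Every other library shared more regions with its own group than with the other treatment of the same sex or stage. In height, proestrus cocaine replicate 2 also stood apart, with a mean correlation of -0.0671 with its own group and -0.143 with the proestrus controls, against 0.289 and 0.272 with their own group for the other proestrus cocaine libraries. The main diestrus results are given with and without diestrus cocaine replicate 1. The 2 male cocaine libraries held the fewest peaks of the series, 87707 and 75458, and called 39.3% of all kept regions on average against 68.3% in male controls.

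The promoters of 6 of the 7 genes were open in all 17 libraries, and that of Cnr2 in none. GENCODE places the protein-coding start of Cnr1 within a region at chr4:33922560-33928586, that of Dagla at chr19:10296164-10308545, that of Daglb at chr5:143463720-143465307, that of Mgll at chr6:88723360-88727355, that of Faah at chr4:116017134-116018689 and that of Napepld at chr5:21699663-21703486, all in mm10. Cnr2, at chr4:135895394-135920207 on the plus strand, has 2 protein-coding starts, and no kept region came within 1 kb of either. A RefSeq promoter of each receptor gene, from 250 bases before to 50 after the start (GRCm38.p6), is printed because 1 of them carries the tallest summit of Cnr1 and the other lacks any peak, with each CpG in capitals. Cnr1 is at chr4:33924394-33924693 and Cnr2 at chr4:135894939-135895238, both on the plus strand.
Cnr1 promoter: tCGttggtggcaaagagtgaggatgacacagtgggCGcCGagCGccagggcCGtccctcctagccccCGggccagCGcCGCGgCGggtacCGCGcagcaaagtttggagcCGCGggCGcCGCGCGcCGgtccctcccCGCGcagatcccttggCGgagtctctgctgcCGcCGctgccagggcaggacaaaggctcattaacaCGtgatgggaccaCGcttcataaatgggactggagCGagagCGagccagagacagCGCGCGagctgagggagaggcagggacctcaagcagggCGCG
Cnr2 promoter: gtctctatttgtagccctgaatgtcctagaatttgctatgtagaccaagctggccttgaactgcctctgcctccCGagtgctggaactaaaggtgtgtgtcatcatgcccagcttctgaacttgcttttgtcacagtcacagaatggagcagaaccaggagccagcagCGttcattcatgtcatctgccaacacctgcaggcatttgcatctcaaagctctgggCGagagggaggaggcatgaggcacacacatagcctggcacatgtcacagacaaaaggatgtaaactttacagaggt
The Cnr1 stretch is 69% G and C with 33 CpGs, and the Cnr2 stretch 50% with 3. The other RefSeq promoters of Cnr1, in the same open region, are 76.3% with 40 CpGs and 46.3% with 5, and that of Daglb, which was also open in all 17 libraries, is 51% with 11. The median over 32851 RefSeq promoters was 52.7% G and C and 7 CpGs. Neither printed stretch holds the SP1 motif GGGCGG on either strand, which 35.7% of all RefSeq promoters hold. The other Cnr1 promoter with 40 CpGs, in the same open region, holds it 5 times, and that with 5 CpGs lacks it.

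The regions on which the later comparisons turn are printed as the 101 bases around their highest summit, on the plus strand of GRCm38.p6. Capitals mark a match to the AP-1 motif (TGACTCA or TGAGTCA, which are each other's reverse complement) and, where there is none, the summit base. Regions are numbered by position within each gene's window. Dagla region 21 is described by its mean difference over the 3 sex and stage groups. Its log2 difference in height was -0.51 in diestrus, -0.53 in proestrus and -0.000995 in males.
Napepld region 8, an intron at chr5:21681039-21681139 that was called in every proestrus cocaine library and no proestrus control: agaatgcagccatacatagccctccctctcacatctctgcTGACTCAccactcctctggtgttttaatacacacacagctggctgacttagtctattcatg
Dagla region 21, an intron at chr19:10290688-10290788 that was lower with cocaine over the 3 sex and stage groups: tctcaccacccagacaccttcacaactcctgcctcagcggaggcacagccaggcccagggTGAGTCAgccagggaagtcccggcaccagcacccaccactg
Dagla region 9, an intron at chr19:10258622-10258722 that was lower with cocaine in diestrus: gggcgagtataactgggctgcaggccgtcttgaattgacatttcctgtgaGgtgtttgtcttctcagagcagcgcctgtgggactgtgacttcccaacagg
Mgll region 6, upstream at chr6:88712223-88712323, which differed between stages and between the cocaine effects of males and females: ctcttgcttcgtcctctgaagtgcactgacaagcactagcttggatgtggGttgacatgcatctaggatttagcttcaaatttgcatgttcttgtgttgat
Faah region 6, an intron at chr4:116007827-116007927 that was called in the 3 male controls alone: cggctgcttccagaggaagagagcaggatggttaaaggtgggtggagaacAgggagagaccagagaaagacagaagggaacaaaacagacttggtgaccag
Within 100 bases of the summit, the AP-1 motif was present in 10 of the 99 regions, 10.1%, the same share as among all kept regions, 10.1%. It stood in regions of Napepld, Mgll, Dagla, Daglb and Cnr2. The CRE motif TGACGTCA was present in 0 of the 99 and in 0.498% of all kept regions, and the SP1 motif in 18.2% of the 99 and 9% of all. The 99 regions had a median of 52.7% G and C in that window against 45.3% over all kept regions.

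**Figure D1:**
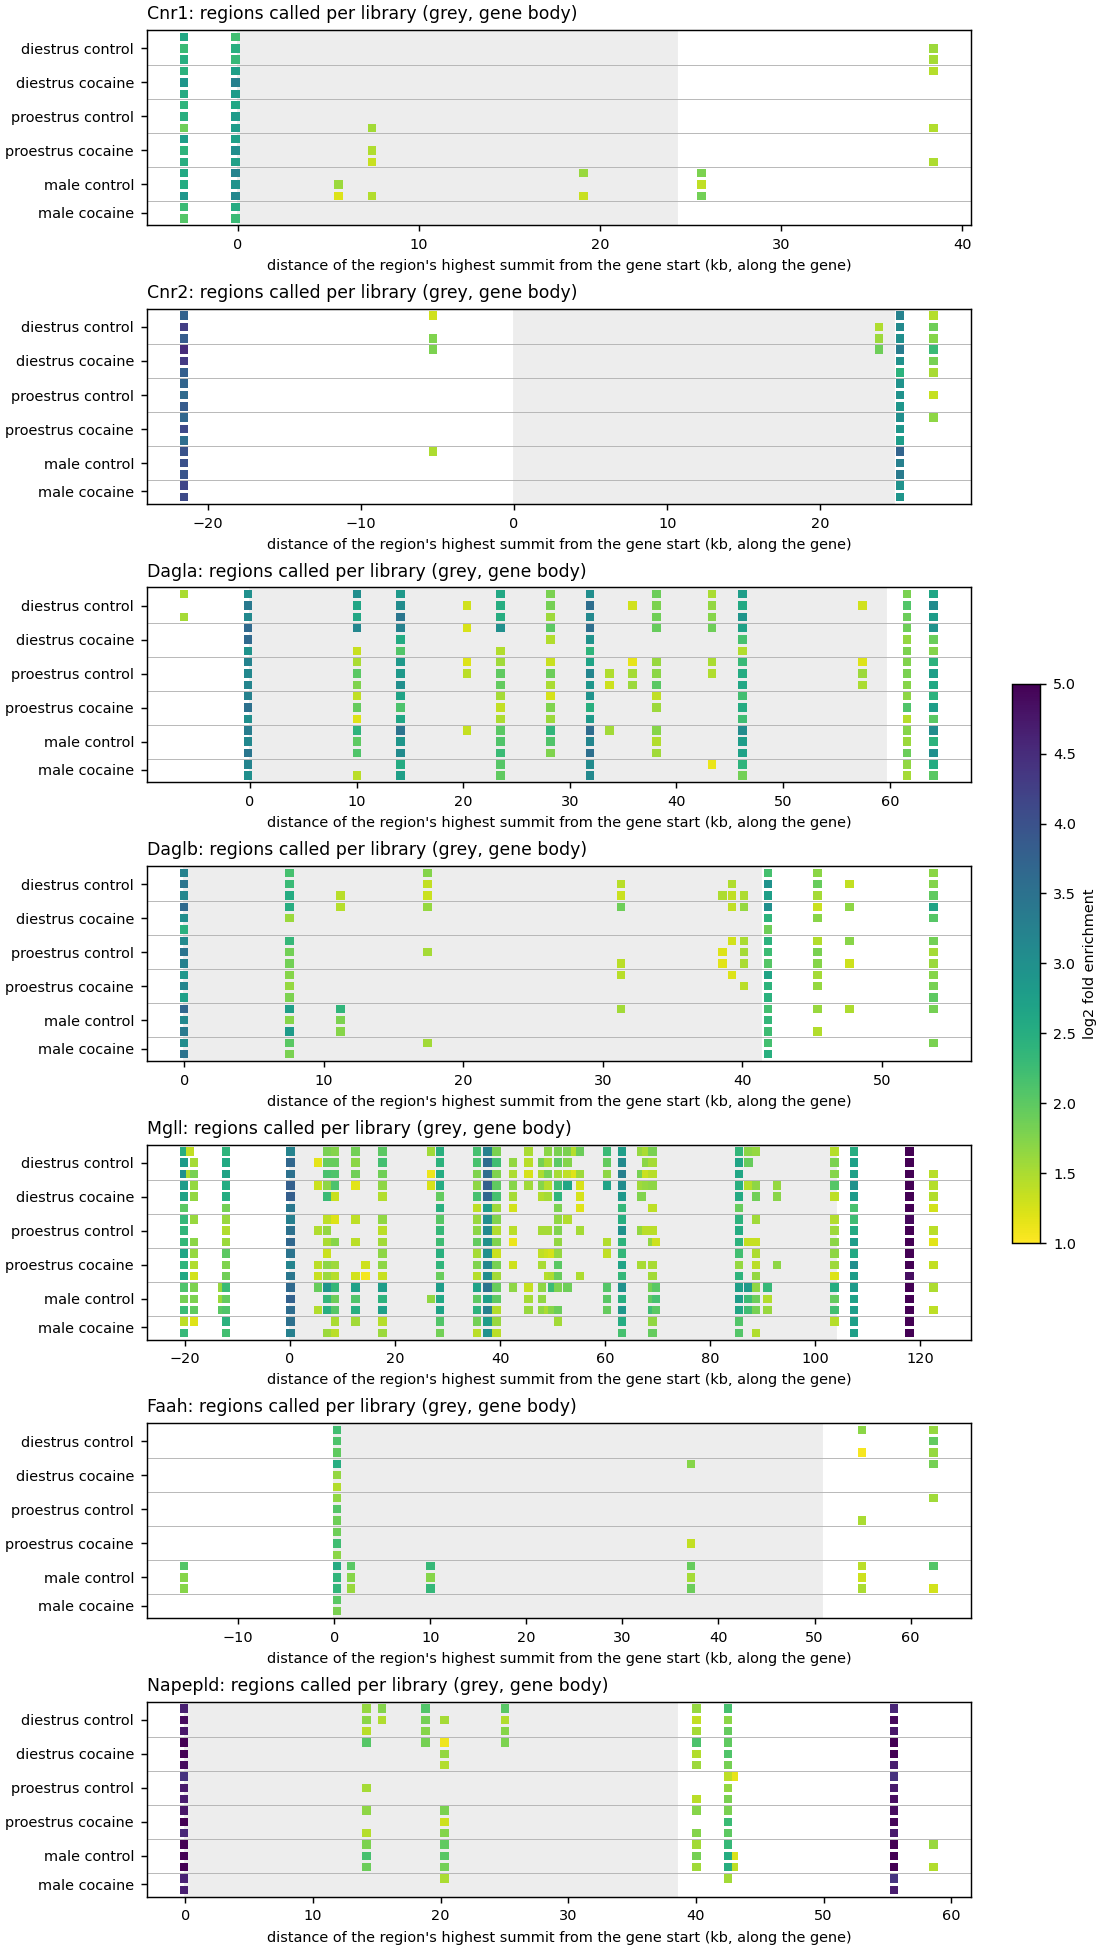
Regions called in each library within the window of each gene, by the distance of the region's highest summit from the gene start in kb (x axis) and by library in the order of the 6 groups (y axis, 1 row per library), coloured by log2 fold enrichment, with the gene body in grey. The Faah panel has 3 positions filled only in the 3 male control rows, the body of Cnr2 is empty but for a region at its far end, and the Mgll panel holds the most positions.

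The genes differed in how many regions they held. Mgll, the longest, had 41 kept regions, or 28.5 per 100 kb of window, and Dagla had 16, Daglb 12, Napepld 11, Cnr1 and Faah 7 each and Cnr2 5. The median over 21755 protein-coding genes was 7.23 per 100 kb, with an interquartile range of 2.42 to 13. Cnr2 and Faah, at 7.71 each, lay near that median, and the other 5 genes above it. By the position of the highest summit, 55 of the 99 regions were intronic, 25 lay in a flank, 8 in an exon and 6 at a promoter of the gene itself. The remaining 5 lay at promoters of neighbours: Pnrc2 and Fuca1 beside Cnr2, Myrf beside Dagla, Abtb1 beside Mgll, and Armc10 with Fbxl13 beside Napepld. The Pnrc2 region, chr4:135870405-135878154, reaches into the Cnr2 window while its highest summit lies outside it, and the same holds for region 1 of Mgll and region 1 of Napepld.

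Among the promoters Napepld was tallest, with a median fold enrichment of 27.2 and above 98.0% to 99.4% of the peaks of each library. Mgll followed at 11.5, then Dagla at 9.18, Daglb at 8.98 and Cnr1 at 6.77. The Faah promoter was lowest at 4.04 and ranged from above 23.7% of the peaks in 1 library to above 79.9% in another. Dagla and Daglb stood close to each other in the female controls, and their difference within libraries was not tested. In diestrus controls Dagla stood at 9.03 ± 1.22 and Daglb at 9.73 ± 1.09 (fold enrichment, SD, n = 3), and in proestrus controls at 9.07 ± 0.238 and 9.72 ± 1.24.

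The tallest region outside a promoter, for each gene, was as follows. In Cnr1 it was region 1, 3.0 kb upstream of the gene start at chr4:33920610-33922210, with a median fold enrichment of 5.60. In Dagla it was intronic region 17 at 8.53, in Mgll intronic region 22 at 8.70 and in Daglb region 14, just past the gene end, at 5.35, each in all 17 libraries. In Faah it was region 6 at 4.97 over 3 libraries, in Napepld region 4, downstream, at 3.88 over 16 libraries, and in Cnr2 region 5, downstream in Fuca1, at 3.26 over 8 libraries.

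Heights of the promoters at Dagla, Daglb, Mgll, Faah and Napepld did not pass the test for cocaine against control in any sex or stage, while that of Cnr1 rose in diestrus. Heights were compared as log2 values centred on the median of the 36847 regions called in all 17 libraries, by limma over all of those, with Benjamini-Hochberg adjustment. The fold enrichments at the Cnr1 promoter were 4.65, 5.58 and 4.98 in the diestrus controls and 6.77, 9.69 and 7.01 in the diestrus cocaine libraries. The groups did not overlap, before or after centring. The centred log2 height was -0.41 ± 0.10 (SD, n = 3) in controls and 0.18 ± 0.36 with cocaine, a difference of 0.59 ± 0.17 (SE; adjusted p = 0.0218). Without diestrus cocaine replicate 1 the difference was 0.80 (adjusted p = 0.000627). It missed the threshold without diestrus control replicate 1 or 3 (adjusted p = 0.0539 and 0.0915) and without diestrus cocaine replicate 2 or 3 (adjusted p = 0.158 and 0.157). Without centring the difference was 0.61 (adjusted p = 0.0703).

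In proestrus the Cnr1 promoter read 6.12, 7.08 and 7.01 in controls and 6.71, 8.23 and 6.70 with cocaine, and in males 9.31, 7.71 and 8.78 against 5.90 and 4.88. The proestrus groups overlapped. In males the uncentred values did not overlap, with cocaine lower, but the centred difference was -0.19 (95% interval -0.57 to 0.19). The centred difference in proestrus was -0.01 (95% interval -0.35 to 0.33). The cocaine effect in diestrus minus that in proestrus was 0.60 (95% interval 0.12 to 1.08), with an adjusted p of 0.73, and 0.81 (95% interval 0.36 to 1.26; adjusted p = 0.101) without diestrus cocaine replicate 1.

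Among controls, the Cnr1 promoter was lowest in diestrus. Its centred height in male controls exceeded that in diestrus controls by 0.57 ± 0.17 (SE; adjusted p = 0.0119), and this held when any 1 library was left out (largest adjusted p 0.0483). Against proestrus controls the diestrus controls were lower by a difference of -0.62 (95% interval -0.96 to -0.28), which missed the threshold (adjusted p = 0.0792). Male and proestrus controls stood at 0.17 ± 0.10 and 0.22 ± 0.08 (centred log2 height, SD, n = 3), and their difference of -0.05 had a 95% interval of -0.39 to 0.29.

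**Figure D2:**
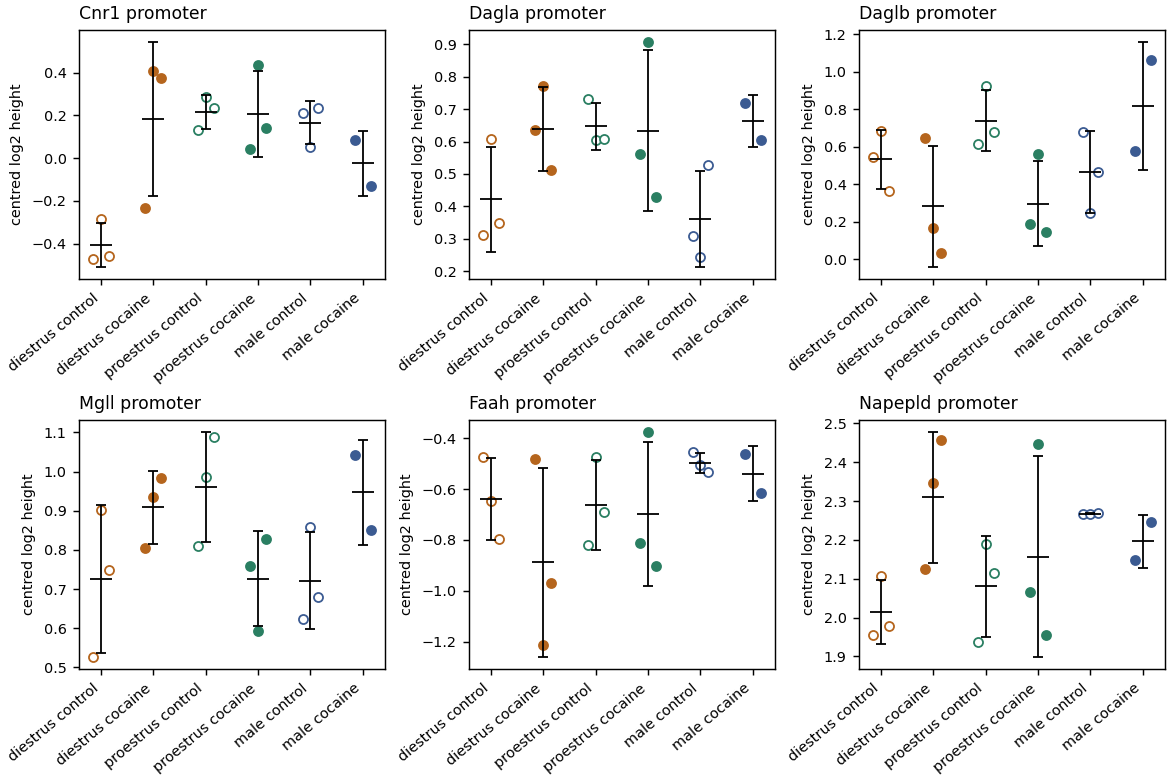
Centred log2 height of the 6 promoter regions (y axis) in each library by group (x axis), with open circles for controls, filled circles for cocaine, and black bars for the mean and SD. At Cnr1 the 3 diestrus controls lie below every other library, and at Napepld all libraries lie near or above 2.

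In diestrus, 3 of the 26 tested regions changed with cocaine, 1 up and 2 down, or 11.5% against a background of 11.1% of all regions tested. The median difference of the 26 was -0.19, and that of all 36847 regions 0.01. Besides the Cnr1 promoter they were both in the Dagla window. Dagla region 9, an intron 46.2 kb from the start at chr19:10258074-10260046, read 6.84, 6.03 and 7.58 in controls and 6.53, 4.53 and 2.76 with cocaine, where the highest value was that of the library that stands apart. The difference was -0.67 ± 0.18 (SE; adjusted p = 0.0177), and -0.85 (adjusted p = 0.00109) without that library. Dagla region 3, at the promoter of the neighbour Myrf, a regulator of myelin genes in oligodendrocytes, read 6.20, 8.49 and 6.95 against 7.72, 3.77 and 3.33. None of the 4 oligodendrocyte marker promoters was called in these libraries, and which cells this region came from was not tested. The difference at Myrf was -0.66 ± 0.20 (adjusted p = 0.0344), and -0.92 (adjusted p = 0.00116) without diestrus cocaine replicate 1. Dagla region 9 missed the threshold without diestrus control replicate 3 (adjusted p = 0.0957) or cocaine replicate 2 or 3 (adjusted p = 0.0941 and 0.155), and region 3 without control replicate 2 or 3 (adjusted p = 0.148 and 0.0927) or cocaine replicate 2 or 3 (adjusted p = 0.244 and 0.155). Without centring none of the 3 regions passed, and without diestrus cocaine replicate 1 the count was 6, with 2 up and 4 down, where 27.3% of all regions tested passed.

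In proestrus, 0 of the 26 regions passed the test against a background of 3.4%, with 3 at an unadjusted p under 0.05 by limma. The smallest was at Dagla region 21, an intron 14.1 kb from the start, where controls read 7.18, 7.19 and 8.15 and cocaine libraries 6.41, 4.38 and 6.18. The groups did not overlap, and the difference was -0.53 ± 0.18 (SE; adjusted p = 0.0804). The median difference over the 26 was -0.09 and over all regions -0.02. Leaving out diestrus cocaine replicate 1 or proestrus cocaine replicate 2 brought the count to 1. In the first of these runs 6.5% of all regions passed.

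In males, 2 of the 26 regions rose, 7.69% against a background of 9.56%, and both lay outside the genes. Mgll region 6, 12.1 kb upstream at chr6:88711882-88712615, read 4.84, 3.86 and 4.28 in controls and 5.47 and 4.65 with cocaine, so that the uncentred values overlapped. The centred difference was 0.71 ± 0.18 (SE; adjusted p = 0.00899). The Pnrc2 promoter beside Cnr2 read 15.7, 16.1 and 15.4 against 18.04 and 17.1, a centred difference of 0.64 ± 0.17 (adjusted p = 0.0108). The calls changed with the scale. The median of all regions in males differed between cocaine and control by -0.40 before centring and 0.09 after it. Without centring the 26 regions gave 0 up and 7 down, with 0.23 for Mgll region 6 (adjusted p = 0.409). The share of all regions that passed without centring is not given. Mgll region 6 missed the threshold without male cocaine replicate 1, where the difference was 0.63, and the Pnrc2 region without either male cocaine library. Such a run leaves 1 library in that group, so that its spread comes from the other groups. The count of 2 fell without either male cocaine library, and became 4 without diestrus cocaine replicate 3 or proestrus cocaine replicate 2.

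Averaged over the 3 sex and stage groups, 4 of the 26 regions changed with cocaine, 15.4% against a background of 13.8%. Dagla regions 9 and 21 fell by 0.39 ± 0.11 and 0.35 ± 0.11 on the log2 scale (SE; adjusted p = 0.0151 and 0.025). Intronic region 46 of Mgll fell by 0.30 ± 0.10 (adjusted p = 0.0443), and the Pnrc2 promoter rose by 0.27 ± 0.09 (adjusted p = 0.0345). At Dagla region 21 the difference was -0.51 in diestrus, -0.53 in proestrus and -0.000995 in males, where the fold enrichments were 11.0, 7.44 and 8.45 against 5.90 and 6.74. Without centring the 4 became 5, with 0 up and 5 down. Dagla region 9 missed the threshold only without male cocaine replicate 2 (adjusted p = 0.112). Dagla region 21 missed it without 7 of the libraries, the Pnrc2 promoter without 8 and Mgll region 46 without 14, with adjusted p up to 0.114, 0.0778 and 0.115, and the count fell to 1 without diestrus control replicate 3, male control replicate 1 or either male cocaine library.

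**Figure D3:**
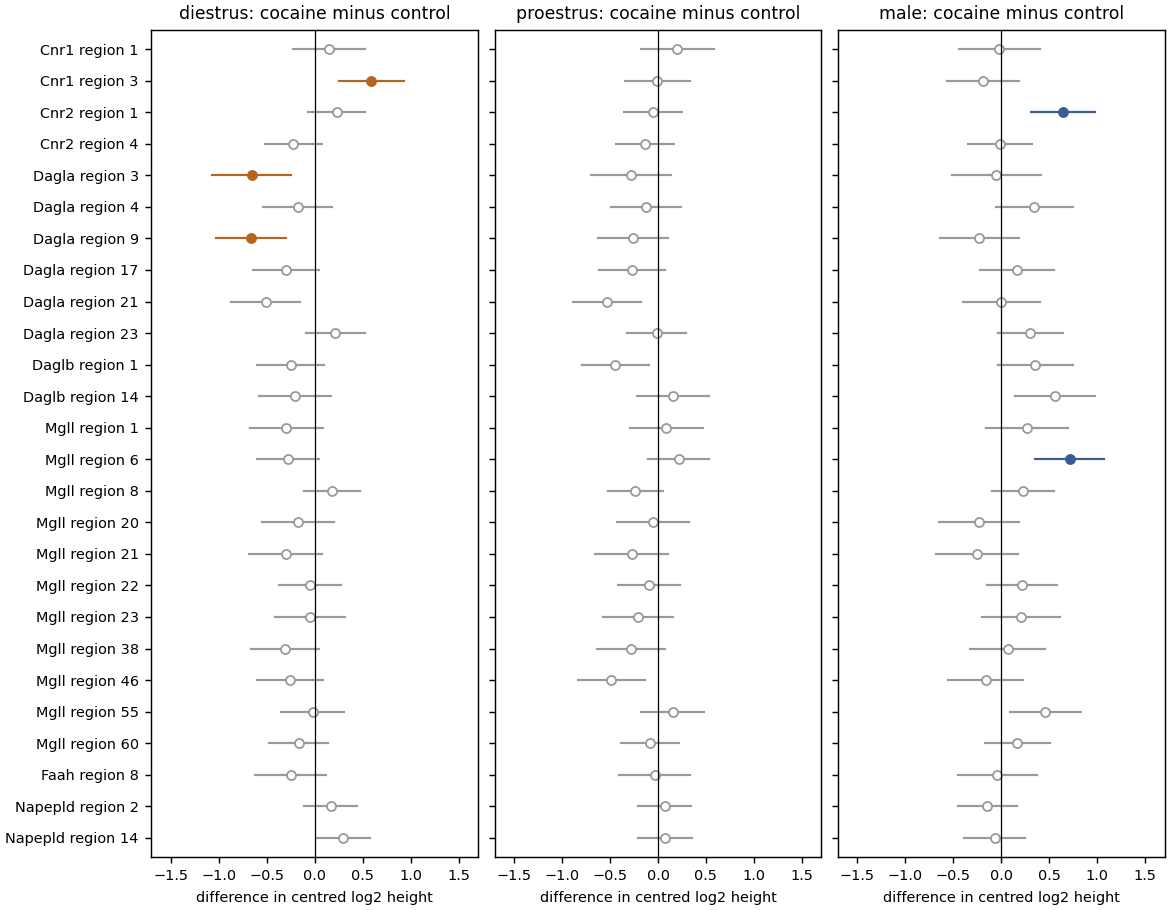
Difference in centred log2 height, cocaine minus control, for the 26 regions called in all 17 libraries (y axis) in diestrus, proestrus and males (x axis of each panel), with 95% intervals and filled points for adjusted p under 0.05. The Cnr1 promoter, region 3 of that gene, is the only filled point to the right in diestrus, no point is filled in proestrus, and both filled points in males lie to the right.

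The cocaine effect differed between males and females at 3 of the 26 regions, 11.5% against a background of 18.4%. At the Daglb promoter the fold enrichments were 9.42, 10.9 and 8.82 in diestrus controls, 12.5, 8.18 and 5.51 with cocaine, 8.55, 11.0 and 9.57 in proestrus controls, 7.41, 8.98 and 6.70 with cocaine, 12.9, 8.81 and 10.3 in male controls and 8.31 and 11.2 with cocaine. Before centring all 3 pairs of groups overlapped. After centring the proestrus pair did not, with 0.61, 0.93 and 0.68 in controls and 0.19, 0.56 and 0.14 with cocaine. The centred differences were -0.25, -0.44 and 0.35, none past the threshold alone (adjusted p = 0.337, 0.13 and 0.233), and the male difference minus the mean of the female ones was 0.70 ± 0.23 (SE; adjusted p = 0.0284). It missed the threshold without male control replicate 2 or male cocaine replicate 2 (adjusted p = 0.0921 and 0.231), and with the replicate number as a block (adjusted p = 0.0593). At Mgll region 6 the male minus female difference was 0.74 ± 0.21 (adjusted p = 0.0141), and at the Pnrc2 promoter 0.56 ± 0.20 (adjusted p = 0.0431). Mgll region 6 missed the threshold without male cocaine replicate 1 (adjusted p = 0.107). The Pnrc2 promoter missed it without any 1 of the 5 male libraries, diestrus control replicate 2, proestrus control replicate 3 or proestrus cocaine replicate 1 or 4, with adjusted p up to 0.148, and with the replicate block (adjusted p = 0.0725). Before centring the median of all regions in this contrast was -0.48, and after it 0.07. Without centring the 26 regions gave 0 up and 5 down, under quantile normalization 2 up and 2 down, and with the replicate block 1 up. Without diestrus cocaine replicate 1 the count was 7, where 28.2% of all regions passed, and without male control replicate 2 or male cocaine replicate 2 it was 1. Between diestrus and proestrus the cocaine effects differed at 0 of the 26 regions, against a background of 0.00543%, with 3 at an unadjusted p under 0.05 by limma.

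Of the 26 regions 6 differed between male and diestrus controls, 1 higher and 5 lower in males, 23.1% against a background of 24%. Besides the Cnr1 promoter these were 4 regions of Mgll and region 14 of Daglb. The largest difference was at Mgll region 1, upstream, with 5.68, 7.03 and 7.99 in diestrus controls, 5.07, 5.22 and 5.02 in proestrus controls and 4.33, 3.58 and 4.83 in male controls, so that males lay below all female controls. The male minus diestrus difference was -0.89 ± 0.19 (SE; adjusted p = 0.00083) and the male minus proestrus difference -0.68 ± 0.19 (adjusted p = 0.0138). The first passed when any 1 library was left out (largest adjusted p 0.0133), and the second missed the threshold without male control replicate 2 (adjusted p = 0.079). It was the only 1 of 26 regions to differ between male and proestrus controls, 3.85% against a background of 14.9%. Before centring the median of all regions was 0.16 and 0.34 higher in males in these contrasts, and without centring the regions gave 1 up and 1 down against diestrus and 7 up and 0 down against proestrus.

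Mgll regions 22, 38 and 6 and Daglb region 14 were the others lower in males than in diestrus. Mgll region 6 fell by 0.64 ± 0.16 (adjusted p = 0.00346), passing with any 1 library left out. Mgll region 22, the tallest of the Mgll window outside any promoter, fell by 0.50 ± 0.16 (adjusted p = 0.0208). Daglb region 14 fell by 0.55 ± 0.18 (adjusted p = 0.0265) and Mgll region 38 by 0.46 ± 0.17 (adjusted p = 0.049). Leaving out diestrus control replicate 2 or 3 brought the count from 6 to 3. Region 22 missed the threshold also without male control replicate 2 (adjusted p = 0.224), region 14 of Daglb without male control replicate 1 or 3 (adjusted p = 0.0862 and 0.071), and region 38 without 11 of the libraries.

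Diestrus and proestrus controls differed at 1 of the 26 regions, 3.85% against a background of 0.318%. This was Mgll region 6, with 5.29, 6.03 and 6.43 in diestrus and 3.06, 2.78 and 3.03 in proestrus controls. The 2 stages did not overlap, and before centring male controls at 4.84, 3.86 and 4.28 lay between them. After centring male controls, at -0.73, -0.95 and -0.80, overlapped proestrus controls, at -0.87, -1.06 and -0.98. The centred difference between the stages was 0.78 ± 0.16 (SE; adjusted p = 0.0199), and 1.00 without centring (adjusted p = 0.0137). It missed the threshold when any 1 of the 6 female control libraries was left out, with adjusted p from 0.0528 to 0.143, while the difference stayed between 0.73 and 0.84. The count was 2 without diestrus cocaine replicate 1 or proestrus cocaine replicate 2. In the first of these runs 1.36% of all regions passed.

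At the Faah locus male cocaine libraries called the promoter alone. Of its 7 kept regions, 4 had passed the filter through the male controls only, so that the high share in male controls is partly set by the filter. Male controls called 7, 6 and 7 of the 7, and 3, 2 and 3 of the 3 that passed through other groups as well. Male cocaine libraries called 1 and 1 of the 7. Diestrus controls called 3, 2 and 3, diestrus cocaine libraries 3, 1 and 1, proestrus controls 2, 1 and 2 and proestrus cocaine libraries 1, 2 and 1. Of the 3 regions that rested on other groups too, diestrus controls also called 3, 2 and 3. Over all kept regions the same groups called 68.3%, 39.3%, 60.5%, 54.9%, 53.2% and 56.9% on average, in that order.

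3 of the Faah regions were called in the 3 male controls and in no other library. Intronic region 6, at chr4:116007672-116008228 and 10.0 kb inside the gene, read 4.97, 3.31 and 5.05. Intronic region 7, at chr4:116015983-116016540 and 1.75 kb inside it, read 4.08, 3.31 and 3.07, and region 10, at chr4:116033310-116033764 which lies upstream of the gene, read 4.21, 3.31 and 3.29. Intronic region 3 read 3.82, 2.89 and 3.73 in male controls and was also called in diestrus cocaine replicate 1, at 3.32, and proestrus cocaine replicate 2, at 2.57. Over the 7 genes 6 of the 99 regions were called in male controls alone, the others being Cnr1 region 15, past the end of the gene, and Mgll regions 5 and 50, and the share among all kept regions was 4.71%. When each library was held to its 75458 strongest peaks, 1 of the 6 was left and 0 at Faah, against 4.08% of all regions. With peaks of -log10 q of at least 5 alone, 5 were left, 3 of them at Faah.

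In males, 18 of the 99 regions were called in all controls and in no cocaine library, 18.2%, and 0 the other way round, against backgrounds of 16.8% and 1.66%. The 18 were 7 of Mgll, 5 of Faah, 2 each of Dagla and Napepld and 1 each of Cnr1 and Daglb. Of the kept regions, 4 of Faah, 3 each of Cnr1 and Mgll, 2 of Napepld and 1 of Daglb had passed the filter through the male controls only. Such regions could be lost in males but not gained, so that the 18 against 0 is partly set by the filter. The same filter lies behind the backgrounds. The tallest in any library were Mgll intronic regions 47, with 7.14, 4.82 and 4.72, and 36, with 4.21, 4.13 and 3.84 in male controls and 6.41 in diestrus cocaine replicate 1, and then Dagla region 18 and Daglb region 5, both with 5.23 in male control replicate 1. When each library was held to the same number of strongest peaks, 3 regions were lost in males, and the share of all regions in that setting is not given. No p is given for complete separation, since even 3 libraries against 3 cannot give an exact two-sided p under 0.1.

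In proestrus 1 region was gained with cocaine, 1.01%, and 2 were lost, 2.02%, against backgrounds of 2.45% and 1.64%. The gained one was Napepld region 8, the intronic region printed above with an AP-1 match. It was uncalled in all proestrus controls and read 3.51, 2.46 and 3.35 with cocaine. In diestrus 1 control read 2.90 and the cocaine libraries 2.14, 3.14 and 2.76, and in males the controls read 3.95, 4.13 and 3.62 and 1 of the 2 cocaine libraries 2.84. Both lost regions were in Dagla, in an exon of the UTR at the gene's end (region 6, at 2.32, 3.02 and 2.84) and in an intron (region 14, at 2.22, 2.90 and 3.03). Of the other Dagla regions, 6 were called in all 17 libraries, and of the remaining 8 proestrus controls called 6, 7 and 5 and cocaine libraries 4, 4 and 3. Over all 16 Dagla regions the mean was 87.5% in proestrus controls and 60.4% with cocaine, and over all kept regions 53.2% and 56.9%. None of these calls was tested. With peaks of -log10 q of at least 5, 0 regions separated the proestrus groups.

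In diestrus 0 of the 99 regions separated cocaine from control in either direction, against backgrounds of 1.16% gained and 1.26% lost. Without the library labelled diestrus cocaine replicate 1 the count was 12, all lost, or 12.1% against 7.24% of all kept regions. They were 5 of Mgll, 3 of Napepld, 2 of Dagla and 1 each of Daglb and Faah. Leaving out diestrus control replicate 2 gave 5 and control replicate 3 gave 2, where the shares of all kept regions are not given.

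Among controls, 2 intronic regions of Napepld separated the stages. Regions 6 and 9, at chr5:21676012-21676450 and chr5:21682281-21682945, read 4.13, 2.79 and 3.32 and 4.26, 3.57 and 3.32 in diestrus controls and were called in no proestrus or male library. The only other library to call them was diestrus cocaine replicate 1, at 3.44 and 3.56. They had passed the filter through the diestrus controls only, so that their separation is partly set by the filter. With Mgll region 26 they made 3 of 99 regions called in all diestrus and no proestrus controls, 3.03% against 4% of all autosomal regions, and 0 were called the other way round, against 0.788%. The count rose to 11 without diestrus control replicate 2 and to 9 without proestrus control replicate 2, and lay at 5 or 6 without diestrus control replicate 3 or proestrus control replicate 1 or 3. Leaving out a library eases complete separation for all regions, and the shares of all regions in these runs are not given.

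Between male and diestrus controls, 8 of the 99 regions were called in all male and no diestrus controls, 8.08% against 9.04% of all autosomal regions, and 6 the other way round, 6.06% against 3.06%. Of the 8, 3 were at Mgll and 4 at Faah, the same 4 that had passed the filter through the male controls only. The 6 included Cnr2 region 5. It was called in all 6 diestrus libraries at 2.71 to 4.87, in 2 of the 6 proestrus libraries and in none of the 5 male ones. Cnr2 region 5 had passed the filter through the diestrus groups only, so that its separation is partly set by the filter. Against proestrus controls, 10 regions were called in all male controls and no proestrus control, 10.1% against 10.5%, and 3 the other way round, 3.03% against 1.43%.

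**Figure D4:**
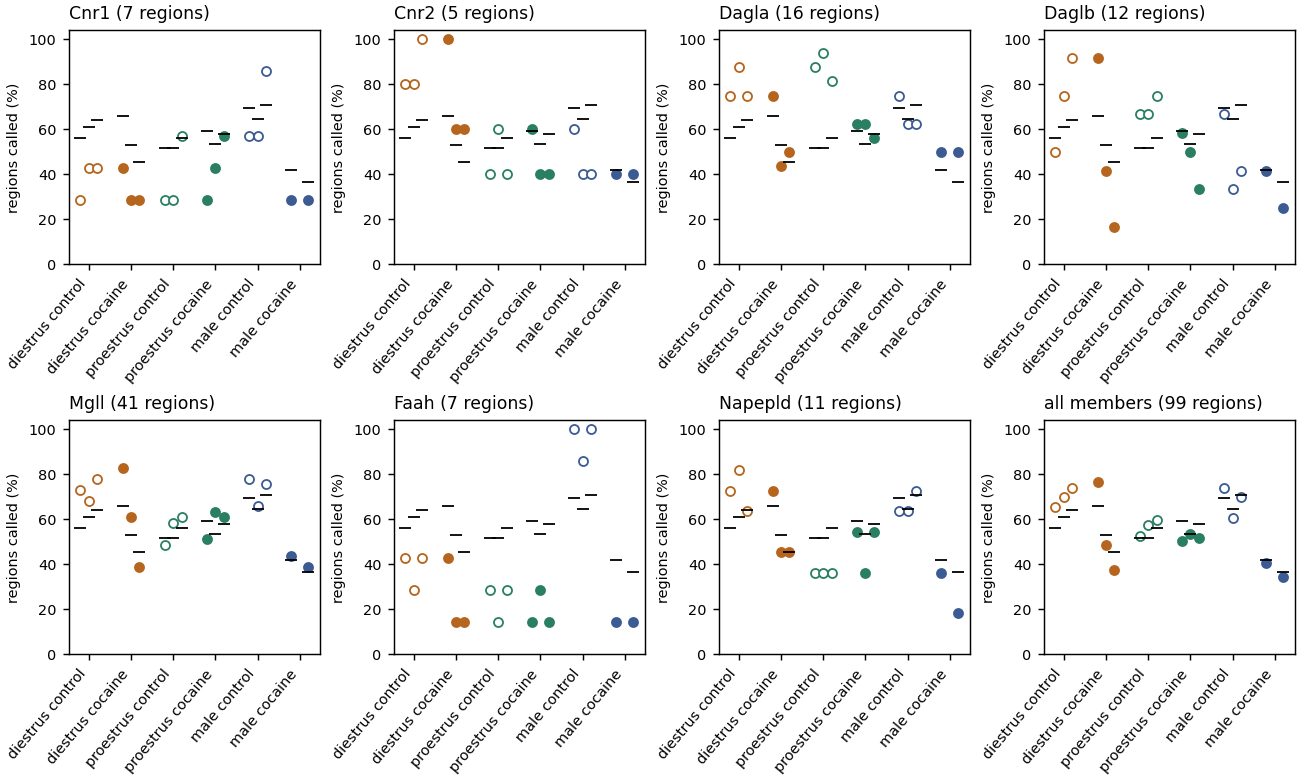
Share of each gene's regions that each library called, in percent (y axis), by group (x axis), with open circles for controls, filled circles for cocaine and black dashes for the share of all kept regions called in the same library. At Faah the 3 male controls lie at 85.7% to 100% and all other libraries at 42.9% or below, where 4 of the 7 regions were kept through the male controls only, and the libraries labelled diestrus cocaine spread from 37.4% to 76.8% over all 99 regions.

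Over all libraries, 0 of the 43 regions called in 4 to 13 libraries differed between the 8 cocaine and 9 control libraries by two-sided Fisher's exact test with Benjamini-Hochberg adjustment, against a background of 0% of 64304. At an unadjusted p under 0.05 there were 6 of the 43, 14%, and 13% of all tested. The smallest p, 0.00905, was shared by Dagla region 13, an intron called in 9 controls and 3 cocaine libraries, and Faah region 2, downstream, called in 6 controls and 0 cocaine libraries, both with an adjusted p of 0.273. The least p that 8 against 9 libraries can give by Fisher's exact test, 4.11e-05, was reached by 18 of the 64304 regions and had an adjusted p of 0.145.

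Of 14 further genes of the pathway, 12 had a promoter called in all 17 libraries and 2, Gpr55 and Trpv1, in none. The tallest was Abhd4, an enzyme of N-acyl phospholipid breakdown, at a median fold enrichment of 27.5, followed by Sgip1 at 18.5 and Fabp5, a fatty acid binding protein, at 17.3. In diestrus 1 of the 12 rose with cocaine, Abhd12, a lipase that also breaks down arachidonoylglycerol, by 0.55 ± 0.15 (log2, SE; adjusted p = 0.0214), and 0 fell, against the background of 11.1%. Without diestrus cocaine replicate 1 the Abhd12 difference was 0.64 (adjusted p = 0.0035) and 5 of the 12 passed, where 27.3% of all regions did. The 5 were Abhd12, Ptgs2, Fabp5, Cnrip1 and Pla2g4e. With all libraries Ptgs2, Fabp5 and Cnrip1 differed in diestrus by 0.39, 0.33 and 0.41 and Pla2g4e by -0.54, none past the threshold. Abhd12 missed the threshold in diestrus without diestrus control replicate 1 or 3 or diestrus cocaine replicate 2 or 3, with adjusted p up to 0.146. In proestrus and in males 0 of the 12 passed in either direction, against 3.4% and 9.56%. Over the 3 sex and stage groups Abhd12 rose by 0.32 ± 0.09 (adjusted p = 0.0183; background 13.8%), and by 0.36 (adjusted p = 0.00392) without diestrus cocaine replicate 1. It missed the threshold there only without male cocaine replicate 2 (adjusted p = 0.0508). In male controls Cnrip1, which binds the tail of CB1, exceeded diestrus controls by 0.58 ± 0.16 (adjusted p = 0.00657) and proestrus controls by 0.45 ± 0.16 (adjusted p = 0.0471), and Abhd12 exceeded diestrus controls by 0.41 ± 0.15 (adjusted p = 0.0463), so that 2 and 1 of the 12 passed against backgrounds of 24% and 14.9%. Cnrip1 missed the threshold against diestrus controls without diestrus control replicate 3 (adjusted p = 0.0766) and against proestrus controls without 8 of the libraries, and Abhd12 without 9. At Ptgs2, which oxygenates arachidonoyl lipids and is an activity-regulated gene, the cocaine effect in males minus that in females was -0.74 ± 0.26 (adjusted p = 0.0452; background 18.4%), and it missed the threshold without 12 of the libraries.

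The promoters whose centred height ran most like that of each gene over the 17 libraries, among 11551 promoter regions, were Skil, Alcam and Rev3l for Cnr1 (Pearson r 0.906, 0.902 and 0.899), Rtl6 for Dagla (0.907), Nomo1 for Daglb (0.907), Ptp4a3 for Mgll (0.773), Zfp7 with Gm49527 for Faah (0.852) and Cdkn2aip for Napepld (0.941). The libraries share their depth and scaling across all promoters, and these values are a description.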

How the data were processed

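Open chromatin was profiled by ATAC-seq in sorted neuronal nuclei of 17 libraries. The authors trimmed adapters, aligned paired reads with BWA to mm10 and called peaks per library with MACS2 (tools per the labels, versions and peak-calling options not given in the sources used here). The deposited narrowPeak files give each peak a score, a fold enrichment (a ratio of the summit pileup to background), -log10 p-values and q-values, and a summit offset. Fold enrichments were whole multiples of 1 read over a constant background of 6.26 to 9.55 reads (tolerance 0.02) for every peak of 16 libraries and 99.988% of peaks in diestrus cocaine replicate 3, and summit pileups were recovered from them. No read count table was used, so count tests were not run.

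Groups came from the sample titles. Autosomal and X peaks of all libraries that overlapped by at least 1 bp became 1 region, and regions called in at least 2 libraries of 1 group were kept. Genes and starts were from GENCODE vM21 (GRCm38, the same assembly as mm10), a promoter being within 1 kb of a protein-coding start. Heights in regions called in all libraries were log2-transformed, centred on each library's median and fitted with limma 3.58.1 over 6 groups, without a block. Comparisons between male and female controls, and the separation of control groups by calls, used autosomes, and the other contrasts autosomes and X. Calls were compared by complete separation within each sex and stage and by Fisher's exact test over all libraries. Adjusted p-values used all regions tested and a threshold of 0.05. Python 3.11.15, scipy 1.17.1, pysam 0.24.0 and R 4.3.3 were used. On simulated data limma recovered 87.5% of 200 log2 changes of 1 in diestrus among 36847 regions, with 9 other calls. Recovery of smaller changes, such as the 0.59 at the Cnr1 promoter in diestrus, is not given.

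The members, gene lists and tests were chosen with earlier results of these data known. All 7 genes are named. Regions are named if they lie at a promoter, are the tallest of a gene outside promoters, pass a height test (up to 6 per contrast), completely separate groups (up to 5 per comparison and direction, by height) or have 1 of the 3 smallest Fisher p-values. Libraries are pools of 3 animals, so p-values measure the spread between pools. No 2 libraries shared more than 0.0728% of their peak intervals. Alternatives were peaks of -log10 q of at least 5, the same number of strongest peaks per library, peaks covering at least 50% of a region, windows of 100 bp around summits, no filter across libraries, no centring, quantile normalization, regions called in at least 12 libraries with missing heights set to the library's lowest, a replicate block and leaving out each library.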

Additional observations from a re-analysis of the deposited data

Results flagged for a closer look

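At 3 of the 26 regions the cocaine effect in males differed from the mean effect in females by limma's test of that difference. That was 11.5% of the 26, against a background of 18.4% of all regions tested. At Mgll region 6, upstream of the gene, the difference was 0.743 on the centred log2 scale (adjusted p = 0.0141). At the Daglb promoter it was 0.701 (adjusted p = 0.0284) and at the Pnrc2 promoter, Cnr2 region 1, 0.556 (adjusted p = 0.0431). In males 2 and 3 libraries were compared. With the replicate block the adjusted p was 0.0253, 0.0593 and 0.0725, and without centring 0.569, 0.709 and 0.981. Groups of 3 or fewer libraries were not searched for outlying values.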

How the results depend on the processing

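Peak files hold only regions above each library's threshold, heights rest on a median of 33 reads, and a region near the threshold can be missed in a library with few peaks. Counts below are of member regions, given without the share of all regions in each setting. They therefore cannot show whether a change of count is particular to these genes. In diestrus without diestrus cocaine replicate 1, for example, 27.3% of all regions passed the height test in place of 11.1%. With peaks of -log10 q of at least 5, 2 regions separated the diestrus groups in place of 0, 0 the proestrus groups in place of 3 and 9 the male and diestrus controls in place of 14, and height calls were 1 in males in place of 2, 0 between diestrus and proestrus controls in place of 1, 3 between male and diestrus controls in place of 6 and 0 between male and proestrus controls in place of 1. With the same number of strongest peaks per library, separating regions were 3 in diestrus, 1 in proestrus, 3 in males in place of 18, 5 between male and diestrus controls and 6 between male and proestrus controls in place of 13. With at least 50% of a region covered they were 1 in diestrus and 6 between diestrus and proestrus controls in place of 3. With summit windows they were 3 in diestrus, 7 in proestrus and 8 between diestrus and proestrus controls, and height calls were 1 in males and 1 over the 3 sex and stage groups in place of 4. Without centring height calls were 0 in diestrus in place of 3, 7 in males, 2 between male and diestrus controls, 7 between male and proestrus controls and 5 for males minus females in place of 3. With regions called in at least 12 libraries they were 4 in males, 7 over the 3 groups and 6 between male and proestrus controls. Why these moved was not tested.

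Leaving out 1 library at a time, separating regions ranged from 0 to 12 in diestrus, 3 to 6 in proestrus and 3 to 11 between diestrus and proestrus controls, and stayed within 1.5 times in the other call comparisons. Proestrus had 5 without control replicate 1 or 3 or cocaine replicate 2, and 6 without control replicate 2, and diestrus had 1 without control replicate 1 or cocaine replicate 3. Height calls ranged from 0 to 6 in diestrus, 0 to 1 in proestrus, 0 to 4 in males, 1 to 5 over the 3 groups, 0 to 2 between diestrus and proestrus controls, 3 to 7 between male and diestrus controls, 0 to 2 between male and proestrus controls and 1 to 7 for males minus females. Over the 3 groups the count was 2 without diestrus cocaine replicate 2, male control replicate 3 or any proestrus control. Between male and proestrus controls it was 2 without diestrus cocaine replicate 3. In these refits the named height differences stayed past the threshold 259 times and missed it 81 times, and none changed direction. Fisher calls were 0 throughout, where the least p possible in all 17 libraries had an adjusted p of 0.145, so this says nothing about stability. A height refit without a male cocaine library left 1 library in that group, so that its spread came from the other groups.

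The replicate numbers did not pair the libraries: deviations of same-numbered control and cocaine libraries correlated from -0.293 to 0.195. With the replicate block, height calls for males minus females went from 3 to 1, and the other height counts stayed within 1.5 times, with 5 in place of 6 between male and diestrus controls. Under the block limma gave an adjusted p of 0.0593 for the Daglb promoter and 0.0725 for the Pnrc2 promoter in males minus females, and of 0.0601 for Mgll region 38 between male and diestrus controls, and these calls were lost.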
